A study of Mus musculus with 2 samples.

Results

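The NF-κB family and its feedback inhibitors were followed through the myeloid cells of mouse colorectal polyps, as 10 listed genes (5 subunits and 5 inhibitors) among the 32285 genes of the single-cell RNA-seq tables. The genes were chosen by name, with earlier results of these data known, and each was measured in 10 cell classes of 2 libraries. All mice were C57BL6/J, 26 weeks old by the labels, and had received azoxymethane (AOM), a colon carcinogen, followed by 3 cycles of 1% dextran sodium sulfate (DSS), which injures the colonic lining; polyps were taken 16 weeks after AOM. The groups differed in Clec7a, the gene of the β-glucan receptor Dectin-1: 1 library held the CD11b+ and CD11c+ cells of 5 wild-type (WT) mice and the other those of 4 Clec7a-/- mice, pooled before sequencing, and the null allele was carried by every cell of the mice, not by one cell type.

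NF-κB is a family of transcription factors that act as pairs of subunits. Inhibitory proteins of the IκB type hold them in the cytoplasm until signals from Toll-like receptors, cytokine receptors or Dectin-1 (through Syk and Card9) release them. Several inhibitors are themselves NF-κB targets, which closes a negative feedback loop, and in myeloid cells the pathway is known for inducing inflammatory cytokines and for dendritic cell maturation.

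With 1 library per genotype there was no replicate, so the libraries were compared by size and no test was run. A level is a gene's summed UMIs (unique molecular identifiers, 1 per captured transcript copy) divided by the UMI total of those cells, in CPM, the unit that scales every group of cells to one common total. Intervals are 95% intervals for counting error only (exact Poisson for levels, exact conditional for ratios, Clopper-Pearson for shares) and cover neither variation among mice nor that of library preparation. After the filter, 2696 WT cells with 12283285 UMIs and 1999 Clec7a-/- cells with 7559096 UMIs remained, with medians of 3412.5 and 2671 UMIs per cell. The libraries shared 17 barcodes. A gene was counted as lower or higher where the levels differed by at least 1.5-fold (0.58 on the log2 scale) and the 2 libraries together held at least 100 UMIs. Genes of the marker lists were counted by fold alone, without this minimum, so markers with few or no UMIs could count.

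Of 15 clusters, 11 were grouped into 10 classes named from markers, which held 2641 WT and 1940 Clec7a-/- cells. Neutrophil-like cells fell into a granule-rich class (507 WT and 105 Clec7a-/- cells) and a granule-poor class (174 and 298 cells, with medians of 1114.5 and 895 UMIs), so that different clusters held most neutrophil-like cells of each library. A cluster with markers of both neutrophils and monocytes is called mixed. The classes that follow them are monocyte-like, transitional-like (between monocytes and macrophages), macrophage-like (2 clusters), cDC1-like, cDC2-like and mature dendritic cell (DC)-like, and T-cell-like. The sort markers Itgam (CD11b) and Itgax (CD11c) stood at 430 and 592 CPM in the WT library and at 262 and 527 CPM in the Clec7a-/- library, and the 66 and 121 T-cell-like cells lay outside what the sort aimed at. Neutrophil transcripts were also found in the other classes, and fewer of them in the Clec7a-/- library: S100a8, which encodes a neutrophil calcium-binding protein, was at 389 CPM in WT and 114 CPM in Clec7a-/- monocyte-like cells. The NF-κB genes are used by almost every cell type, so no class served as a blank for them.

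All 10 genes are protein-coding. In GRCm38 with the GENCODE M21 annotation, Nfkb1 (p105/p50) lies on chromosome 3 (135584655 to 135691547), Nfkb2 (p100/p52) and Rela (p65) on chromosome 19 (46304320 to 46312385 and 5637483 to 5648130), Rel (c-Rel) on chromosome 11 (23736847 to 23770970) and Relb on chromosome 7 (19606217 to 19629438). Of the inhibitors, Nfkbia (IκBα) lies on chromosome 12 (55489410 to 55492647), Nfkbid (IκBNS) on chromosome 7 (30421732 to 30428746), Nfkbie (IκBε) on chromosome 17 (45555703 to 45563169), Nfkbiz (IκBζ) on chromosome 16 (55811375 to 55838899) and Tnfaip3 (A20, a ubiquitin-editing enzyme) on chromosome 10 (19000910 to 19015657). Nfkb2 overlaps Psd and the non-coding AC114539.1 on the opposite strand, and whether the counting used strand is not given in the sources used here. Nfkb1 overlaps Gm43430, which is not among the genes counted, on the same strand. The counts of Nfkb1 and Nfkb2 are therefore less certain.

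The letters of the NF-κB decamer stood before the start sites of both groups of genes. RefSeq start sites (GRCm38.p6) were at hand for 7 of the 10 genes in 12 windows of 250 bases. The decamer searched for was GGG, then A or G, 2 bases of any kind, 2 bases that are C or T, and CC. Searched on both strands, it occurred in 8 of these windows and in 6 of the 7 genes, all but Rela. It occurred in 7.25% of the 32851 windows of the same length and in 8.23% of the 27025 genes. Nfkb1, Relb and Nfkbiz had no entry. The windows of 2 subunits, both higher in dendritic cells, and of 2 inhibitors, both higher in neutrophil-like cells, are printed so that the matches can be read in place, with decamer matches in capitals and overlapping matches run together. The printed window is that of start site 1 of each gene. Its matches start 39, 38 and 11 bases before the start for Nfkb2, 92 and 91 bases before for Rel, 29 bases before for Nfkbia, and 125 and 12 bases before for Tnfaip3. Of the windows not printed, those of start sites 2 and 3 of Nfkb2 hold matches 236 and 225 bases before the start. That of start site 2 of Tnfaip3 holds none. All are matches of letters, not measured binding.
Nfkb2 (chr19:46304487-46304736, + strand): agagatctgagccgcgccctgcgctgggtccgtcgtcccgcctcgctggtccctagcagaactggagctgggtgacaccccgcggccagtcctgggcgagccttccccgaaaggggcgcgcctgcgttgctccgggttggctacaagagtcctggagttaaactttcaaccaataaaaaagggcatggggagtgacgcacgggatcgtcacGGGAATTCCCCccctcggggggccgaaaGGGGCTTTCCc
Rel (chr11:23770970-23771219, - strand): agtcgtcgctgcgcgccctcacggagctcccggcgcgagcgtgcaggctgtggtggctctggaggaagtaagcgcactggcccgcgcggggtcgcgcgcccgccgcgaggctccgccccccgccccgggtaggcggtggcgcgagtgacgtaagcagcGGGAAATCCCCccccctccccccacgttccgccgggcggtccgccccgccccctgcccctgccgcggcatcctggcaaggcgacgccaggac
Nfkbia (chr12:55492648-55492897, - strand): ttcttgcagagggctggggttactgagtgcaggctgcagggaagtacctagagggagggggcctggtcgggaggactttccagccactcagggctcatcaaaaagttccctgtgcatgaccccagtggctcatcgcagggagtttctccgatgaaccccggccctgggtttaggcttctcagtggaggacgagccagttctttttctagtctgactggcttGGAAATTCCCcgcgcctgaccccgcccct
Tnfaip3 (chr10:19015411-19015660, - strand): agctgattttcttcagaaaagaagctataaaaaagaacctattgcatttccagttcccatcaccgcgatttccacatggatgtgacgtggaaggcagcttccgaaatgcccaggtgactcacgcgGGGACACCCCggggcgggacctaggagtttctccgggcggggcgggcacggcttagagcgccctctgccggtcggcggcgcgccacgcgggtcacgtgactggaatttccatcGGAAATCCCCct

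The genes divided between dendritic and neutrophil-like cells in both libraries. The 5 subunits and Nfkbie were higher in the 3 dendritic classes together than in the 2 neutrophil-like classes together, and Nfkbia, Nfkbid, Nfkbiz and Tnfaip3 were lower, each with an interval of the ratio that left out 0 in both libraries. The plot of levels by class and library shows this division. When cells were clustered in 10 other ways, the highest class stayed the same in at least 8 of them for each gene and library, except Nfkbie in the WT library (2 of 10) and Nfkbid in the Clec7a-/- library (6 of 10). The lowest class was less stable, and stayed the same in 2 of 10 for Tnfaip3, 3 of 10 for Nfkb1 and 5 of 10 for Rel in the Clec7a-/- library.

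**Figure D1:**
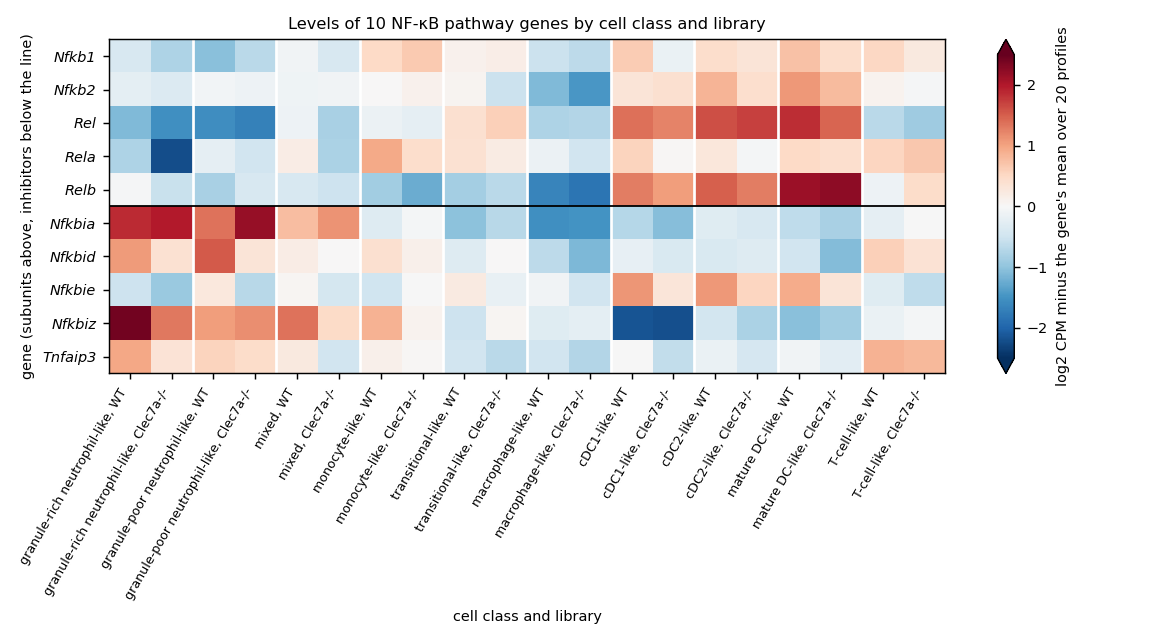
Levels of the 5 subunits (above the line) and the 5 inhibitors (below it) in 10 cell classes of both libraries, as log2 CPM minus the mean of the gene over its 20 profiles. Relb and Rel are darkest red in the dendritic classes, and Nfkbia and Nfkbiz in the neutrophil-like classes.

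Relb, the subunit of the non-canonical pathway, was concentrated in dendritic cells. It stood at 420 CPM (interval 370 to 473) in WT and 450 CPM (408 to 494) in Clec7a-/- mature DC-like cells, which express the migration receptor Ccr7. The macrophage-like class was lowest, at 30.6 CPM in WT and 26.9 CPM in Clec7a-/- cells, so that the mature DC-like level was 13.7-fold (11.1 to 17.0) and 16.7-fold (12.6 to 22.6) higher. In cDC2-like cells Relb was at 269 and 233 CPM and in cDC1-like cells at 232 and 196 CPM. These were the next highest classes in both libraries, and in each library the intervals of the 2 classes overlapped. The highest and the lowest class were the same in both libraries under all 10 other clusterings.

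Nfkb2, whose p52 product pairs with RelB, was also highest in mature DC-like cells, at 291 CPM (250 to 336) in WT and 236 CPM (207 to 269) in Clec7a-/- cells. It was lowest in macrophage-like cells, at 63.7 and 49.9 CPM, a 4.57-fold and a 4.74-fold span. Outside the macrophage-like and dendritic classes the WT levels lay between 116 CPM in granule-rich neutrophil-like cells and 146 CPM in T-cell-like cells, a narrow range for their intervals.

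Rel, the subunit known for its part in lymphocyte and dendritic cell activation, was high in all 3 dendritic classes. WT levels were 672 CPM (610 to 739) in mature DC-like, 567 CPM (502 to 637) in cDC2-like and 485 CPM (435 to 539) in cDC1-like cells. Clec7a-/- levels were 512 CPM (468 to 560), 612 CPM (551 to 678) and 441 CPM (405 to 479), so the highest class was mature DC-like in one library and cDC2-like in the other. Neutrophil-like cells were lowest: the granule-poor class was at 63.7 CPM in WT and 58.1 CPM in Clec7a-/- cells, 10.6-fold and 10.53-fold below the highest class. Transitional-like cells lay between, at 245 and 280 CPM.

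Nfkb1 and Rela, the subunits of the canonical pair, varied less across classes, except Rela in the Clec7a-/- library. Nfkb1 ranged from 305 CPM (236 to 387) in granule-poor neutrophil-like to 1034 CPM (957 to 1117) in mature DC-like cells of the WT library. In the Clec7a-/- library it ranged from 367 CPM (285 to 465) in granule-rich neutrophil-like to 989 CPM (910 to 1074) in monocyte-like cells. In the WT library 5 classes, mature DC-like, cDC1-like, T-cell-like, monocyte-like and cDC2-like, followed each other with overlapping intervals. Rela ran from 59.1 CPM (47.6 to 72.6) in granule-rich neutrophil-like to 193 CPM (166 to 223) in monocyte-like WT cells. In the Clec7a-/- library Rela was highest in T-cell-like cells, at 160 CPM, a 7.42-fold span (2.67 to 28.6). Its lowest value there, 21.6 CPM (5.88 to 55.3) in granule-rich neutrophil-like cells, rested on 4 UMIs.

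Nfkbia, which encodes the classical inhibitor that NF-κB itself induces, was highest in neutrophil-like cells of both libraries. It stood at 4467 CPM (4362 to 4574) in WT and 4829 CPM (4517 to 5156) in Clec7a-/- granule-rich neutrophil-like cells. In the granule-poor class it was at 3137 CPM (2908 to 3380) and 5553 CPM (5287 to 5830). Macrophage-like cells were lowest, at 420 CPM (401 to 440) and 434 CPM (405 to 464), and remained lowest in both libraries under all 10 other clusterings. The span between the highest and the lowest class was 10.6-fold (10.1 to 11.2) in WT and 12.8-fold (11.8 to 13.9) in Clec7a-/- cells. In the WT library 42.4% of all Nfkbia UMIs came from granule-rich neutrophil-like cells, and in the Clec7a-/- library 11.6%.

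Nfkbiz, a nuclear IκB protein needed for a second wave of inflammatory genes, was also highest in granule-rich neutrophil-like cells. The level there was 691 CPM (650 to 734) in WT and 324 CPM (247 to 417) in Clec7a-/- cells. It was lowest in cDC1-like cells, at 29.3 CPM (18.2 to 44.9) and 28.5 CPM (20.0 to 39.5), and the span was 23.5-fold (15.3 to 38.2) in WT and 11.4-fold (7.39 to 17.7) in Clec7a-/- cells. The other dendritic classes were also low, at 95.2 and 75.9 CPM in cDC2-like and 63.6 and 71.9 CPM in mature DC-like cells.

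Tnfaip3 was high in both granule-rich neutrophil-like cells (777 CPM in WT and 502 CPM in Clec7a-/-) and T-cell-like cells (718 CPM, interval 597 to 857, and 695 CPM, interval 593 to 810). Macrophage-like cells had the lowest level, at 282 CPM (266 to 298) and 239 CPM (218 to 262), and transitional-like cells, at 284 and 248 CPM, overlapped them. Nfkbid, another nuclear IκB protein, had its highest WT level in granule-poor neutrophil-like cells, at 191 CPM (138 to 258), and was lowest in macrophage-like cells, at 41.7 and 30.4 CPM. Nfkbie ran the other way from these inhibitors, with 155, 154 and 137 CPM in cDC1-like, cDC2-like and mature DC-like WT cells against 50.04 CPM in granule-rich neutrophil-like cells. The intervals of the 3 dendritic levels overlapped.

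**Figure D2:**
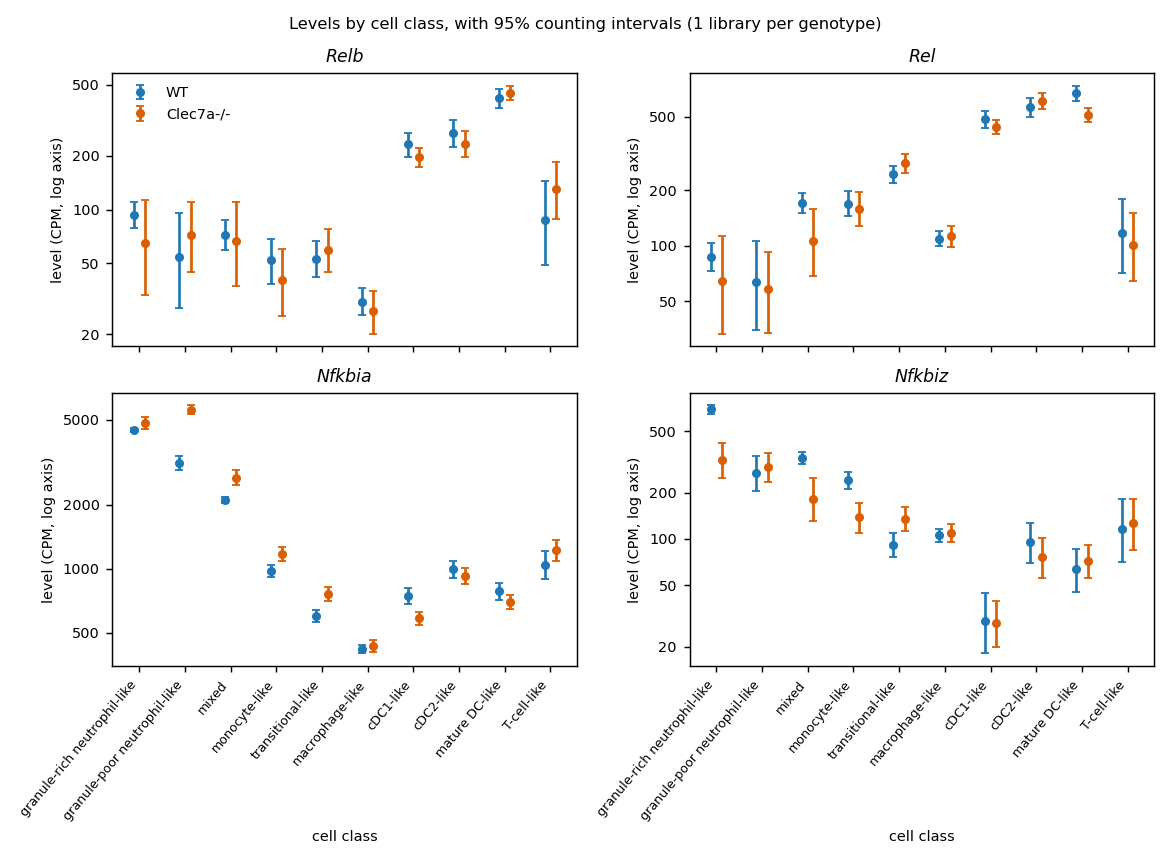
Levels of Relb, Rel, Nfkbia and Nfkbiz in CPM on a log axis, by cell class, in the WT (blue) and Clec7a-/- (orange) libraries, with 95% counting intervals. Relb peaks at 420 and 450 CPM in mature DC-like cells, and Nfkbiz in granule-rich neutrophil-like cells at 691 and 324 CPM.

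Shares of cells with at least 1 UMI, after each cell was thinned to 1000 UMIs, were computed to set the classes side by side at equal depth, which left out 186 WT and 307 Clec7a-/- cells with fewer UMIs. A Rel UMI was found in 44.2% (35.1 to 53.5) of 120 WT and 38.6% (31.9 to 45.7) of 202 Clec7a-/- mature DC-like cells, and in 9.11% (6.75 to 11.96) of 505 and 6.06% (2.26 to 12.7) of 99 granule-rich neutrophil-like cells. Without thinning the mature DC-like shares were 87.2% and 75.0% and the granule-rich shares 21.5% and 10.48%. A Nfkbia UMI was found in 95.4% (93.2 to 97.1) and 97.0% (91.4 to 99.4) of thinned granule-rich neutrophil-like cells, against 30.2% (26.3 to 34.4) and 32.1% (26.7 to 38.0) of macrophage-like cells. Before thinning, 72.7% and 72.6% of macrophage-like cells, which were the deepest at medians of 7822 and 6116 UMIs, had one.

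The likeness of the profiles was described by Pearson's r of log2(CPM + 1) over the 20 class-by-library profiles, which share 2 libraries and differ in depth. Among the 10 genes, Nfkb2 and Relb (r = 0.853), Rel and Nfkbie (0.825), Nfkbid and Tnfaip3 (0.774) and Nfkbia and Nfkbiz (0.772) were most alike, and Rel and Nfkbiz least (-0.746). Of 4655 genes with at least 500 UMIs, the closest to Nfkbia were Dusp1 (0.964), Kdm6b (0.955) and Fgd3 (0.948), and the closest to Nfkbiz were Hbp1 (0.956), Fpr1 (0.946) and Ets2 (0.933). Rel was closest to Irf5 (0.951), St8sia4 (0.946) and Etv3 (0.945), and Relb to Nr4a3 (0.933), Dennd5a (0.930) and Helz2 (0.928). The closest to Nfkb2 were Traf1 (0.913), Akap13 (0.876) and Relb, and to Rela Agfg1 (0.938), Kmt2d (0.932) and Pitpnb (0.923). Nfkb1 (Ywhaz, Prr14 and H2-Q7, 0.848 to 0.837), Nfkbid (Ezr and Chd4, 0.871 and 0.858), Nfkbie (Malt1, Htr7 and Cmtr1, 0.883 to 0.858) and Tnfaip3 (Vps37b, Ccng2 and Fam107b, 0.859 to 0.857) had no neighbour above 0.9.

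Between the genotypes, over all cells kept, Nfkbiz was lower and Relb higher in the Clec7a-/- library by the 1.5-fold rule. That is 1 of 10 genes in each direction, where 5.7% of 8470 genes were lower and 10.2% higher. Nfkbiz stood at 215 CPM (207 to 224) in the WT and 110 CPM (102 to 118) in the Clec7a-/- library, for a log2 ratio of -0.97 (-1.09 to -0.86). Relb stood at 90.4 CPM (85.1 to 95.8) and 138 CPM (130 to 147), a log2 ratio of 0.61 (0.49 to 0.74). With TMM scaling (0.45) and with each cell given the same weight (0.48), Relb was within 1.5-fold. Rel was at 204 and 276 CPM, Nfkbia at 1319 and 1023 CPM and Tnfaip3 at 403 and 301 CPM, all within 1.5-fold. The median log2 ratio of the 10 genes was -0.17, against 0.13 for all genes tested.

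The classes took different shares of the 2 libraries, and part of these ratios moved with them. Granule-rich neutrophil-like cells held 12.8% of the UMIs of the 10 classes in WT and 2.55% in Clec7a-/- cells, whereas cDC1-like cells held 5.97% and 17.4% and mature DC-like cells 5.25% and 13.2%. With both libraries weighted by the WT shares, the log2 ratio of Relb went from 0.63 to -0.11, that of Rel from 0.47 to -0.12 and that of Nfkbia from -0.35 to 0.19. When WT levels were kept and only the shares were set to those of the Clec7a-/- library, the ratios were 0.68 for Relb, 0.59 for Rel and -0.53 for Nfkbia. For Nfkbiz the ratio was -0.55 at the WT shares and -0.79 from the shares alone, against -0.98 as measured. The shares themselves may be set by the sort and the pooling of mice, which cannot be told apart from the genotype here.

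**Figure D3:**
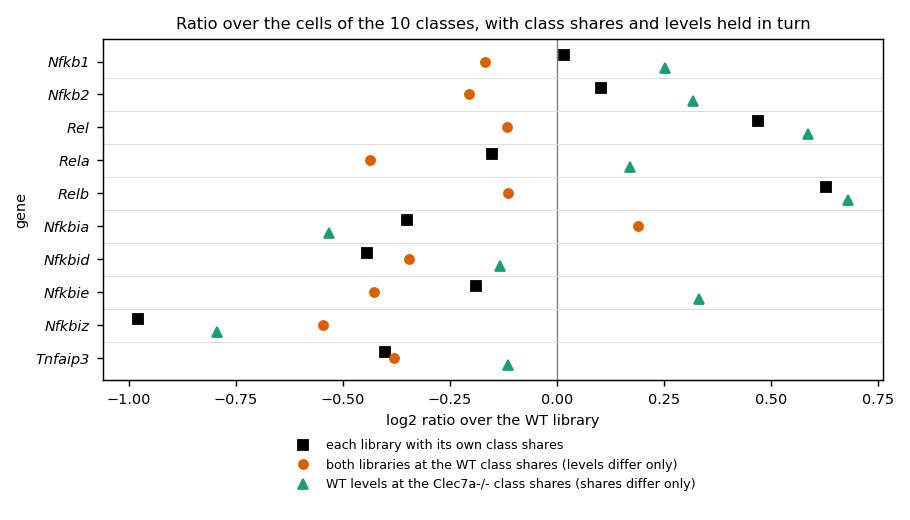
Log2 ratio over the WT library for each gene, over the cells of the 10 classes: as measured (squares), with both libraries at the WT class shares (circles), and with WT levels at the Clec7a-/- shares (triangles). Relb and Rel lie right of 0 as measured and left of it at the WT shares, and Nfkbia does the reverse.

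Within the classes, 79 pairs of a gene and a class had at least 100 UMIs. In 13 of them the Clec7a-/- level was lower by the 1.5-fold rule and in 1 higher, where over all genes 5.57% of 24360 pairs were lower and 4.94% higher. The ratio was below 0 in 56 of the 79 pairs. The share of pairs below 0 over all genes was not computed, and the pairs repeat the same 10 genes in the same 2 libraries. No gene of the 10 passed the rule in macrophage-like, cDC2-like or T-cell-like cells, and only 3 genes reached 100 UMIs in T-cell-like cells.

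**Figure D4:**
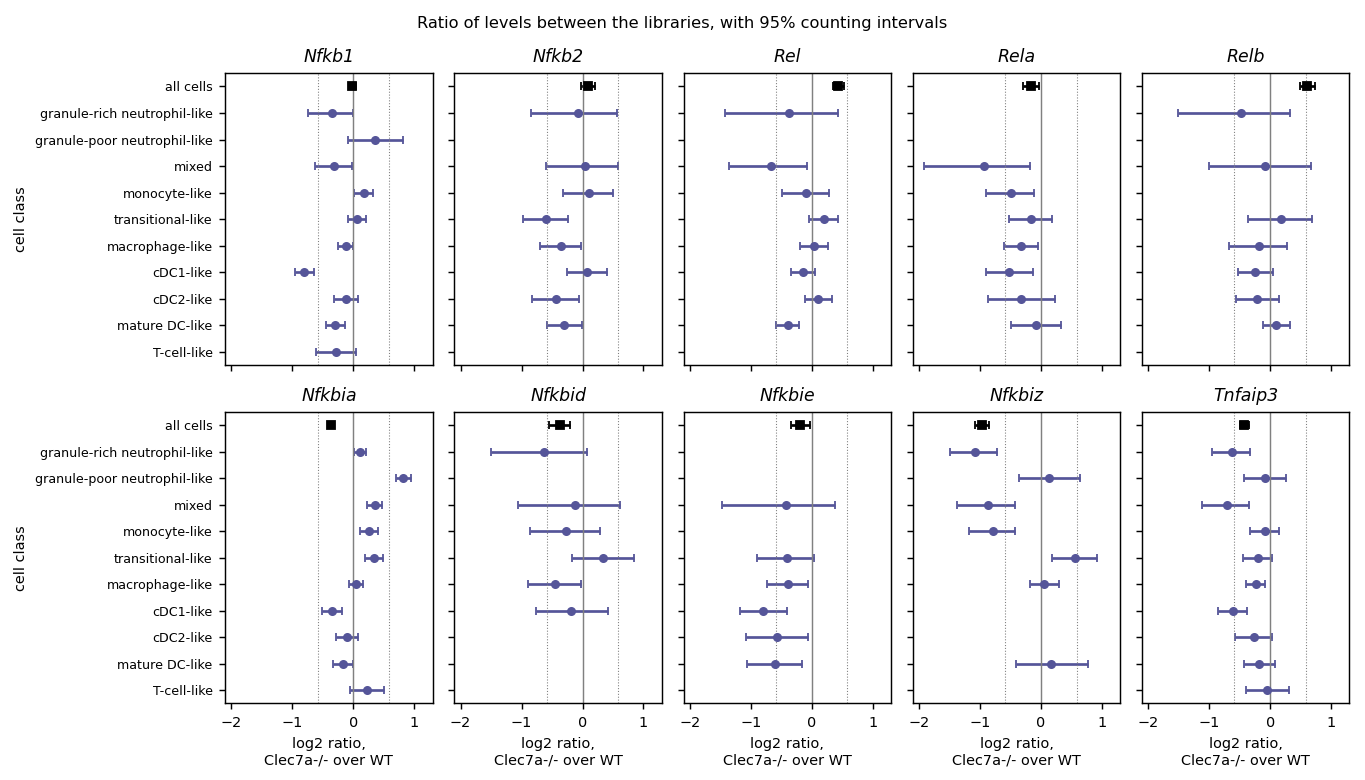
Log2 ratio of Clec7a-/- over WT for each gene in all cells (squares) and in each class (circles) where the libraries together held at least 100 UMIs, with 95% counting intervals; dotted lines mark 1.5-fold. Nfkbiz lies at -1.08 in granule-rich neutrophil-like cells and 0.55 in transitional-like cells, and Nfkbia at 0.82 in granule-poor neutrophil-like cells.

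In granule-rich neutrophil-like cells 3 of the 8 genes with enough UMIs were lower and none higher in the Clec7a-/- library, where 9.97% of 1776 genes were lower and 11.3% higher. Nfkbiz had a log2 ratio of -1.08 (-1.49 to -0.72), from 1063 and 60 UMIs. Tnfaip3 had a ratio of -0.62 (-0.95 to -0.32) and Nfkbid of -0.63 (-1.501 to 0.07), an interval that held 0. The ratio of Nfkbiz stayed between -1.33 and -0.79 in every alternative, whereas those of Tnfaip3 and Nfkbid reached -0.44 and -0.28. The summed level of the 12 neutrophil markers was 58980 CPM in WT and 51965 CPM in Clec7a-/- cells, with none of the 12 past 1.5-fold. Nfkbia had a ratio of 0.11 (0.01 to 0.21), and this direction turned with 10 components (-0.10) and with TMM scaling (-0.11), which moved every ratio of this class down by 0.22.

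In granule-poor neutrophil-like cells only 4 of the 10 genes had 100 UMIs, and 24.3% of 879 genes were lower and 24.2% higher. Nfkbia was higher there, with a log2 ratio of 0.82 (0.69 to 0.95), and it was within 1.5-fold in 4 alternatives, with 500 to 6000 detected genes (0.37), 10 components (0.49), reciprocal PCA (0.30) and the highest 5% of Scrublet scores removed (0.40), and at 1.37 with TMM scaling, which moved every ratio of this class up by 0.55. Nfkbiz had a ratio of 0.13 (-0.36 to 0.64). The summed level of the 12 neutrophil markers also differed in this class, at 20193 CPM in WT and 32725 CPM in Clec7a-/- cells, with 6 of the 12 markers higher by fold and 1 lower. Transitional markers summed to 4561 and 8313 CPM (5 of 8 higher and 1 lower) and B or plasma cell markers to 464 and 116 CPM (4 of 8 lower and 2 higher). Eosinophil markers summed to 164 and 34.2 CPM (3 of 5 lower), with 2 of the 5 at 0 in WT and 3 in Clec7a-/- cells. The part of these lists in the ratio was not tested. Pooled, the 2 neutrophil-like classes gave Nfkbia at 4301 and 5272 CPM (log2 ratio 0.29, 0.23 to 0.36), Nfkbiz at 638 and 306 CPM (-1.06, -1.32 to -0.81) and Tnfaip3 at 752 and 527 CPM (-0.51, -0.71 to -0.32). The pools were mixed differently. Granule-rich and granule-poor cells held 12.8% and 1.83% of the UMIs of the 10 classes in WT, and 2.55% and 4.02% in Clec7a-/- cells. WT Nfkbiz was at 691 CPM in the granule-rich and 268 CPM in the granule-poor class. The part of the mix in the pooled ratios was not tested.

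Nfkbiz was also lower in the mixed and monocyte-like classes. In mixed cells it was at 336 CPM (307 to 366) in WT and 182 CPM (131 to 247) in Clec7a-/- cells, and Rel, Rela and Tnfaip3 were lower as well, so that 4 of 10 genes were lower and none higher (9.42% and 6.27% of 2345 genes). The ratio of Rel there rested on 24 Clec7a-/- UMIs and that of Rela on 13; with a pseudocount of 5 UMIs, 2 genes passed. The neutrophil markers summed to 25851 and 18580 CPM in these cells, with 5 of 12 lower and 1 higher by fold alone. The macrophage markers summed to 1268 and 1984 CPM, with 7 of 10 higher and none lower by fold alone. In each library 1 of these macrophage markers had no UMI. The part of both lists was not tested. In monocyte-like cells Nfkbiz was at 240 CPM (209 to 273) and 138 CPM (109 to 172), a log2 ratio of -0.79 (-1.18 to -0.42), and was the only 1 of 8 genes to pass (4.76% of 2353 genes were lower and 2.89% higher), and with 30 components it was at -0.57 and no gene passed. Neutrophil transcripts were lower in the same cells: S100a8 was at 389 and 114 CPM, S100a9 at 554 and 311 CPM, and the 12 neutrophil markers summed to 8529 and 6776 CPM, with 5 of them lower by fold and none higher. The 7 interferon-induced genes were all lower by fold in these cells, at 503 and 122 CPM in sum. In some of the other classes they went the other way. They summed to 261 and 523 CPM in granule-rich cells (6 of 7 higher and 0 lower) and to 81.8 and 410 CPM in granule-poor cells (6 higher and 0 lower). In mixed cells they summed to 135 and 280 CPM (7 higher and 0 lower), and in transitional-like cells to 98.7 and 152 CPM (6 higher and 0 lower). In cDC1-like cells they summed to 194 and 181 CPM (2 higher and 3 lower). The part of both lists in the ratio of Nfkbiz was not tested.

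The share of cells with a Nfkbiz UMI was lower in the Clec7a-/- library in granule-rich neutrophil-like cells. In monocyte-like cells the difference depended on the depth of thinning. After thinning to 1000 UMIs the share was 46.3% (41.9 to 50.8) of 505 WT and 24.2% (16.2 to 33.9) of 99 Clec7a-/- granule-rich neutrophil-like cells, and 16.8% (12.8 to 21.6) of 297 and 9.66% (6.002 to 14.5) of 207 monocyte-like cells. After thinning to 2000 UMIs the granule-rich shares were 69.3% (65.0 to 73.3) of 488 and 38.7% (21.9 to 57.8) of 31 cells. The monocyte-like shares were then 23.4% (18.1 to 29.3) of 235 and 21.7% (15.2 to 29.3) of 143 cells. Before thinning the shares were 77.3% and 42.9%, and 33.9% and 21.9%. In granule-poor neutrophil-like cells they were 19.0% and 18.6% after thinning to 1000 UMIs, and in macrophage-like cells 10.7% and 12.1%, with intervals that overlapped. The granule-poor shares cover 100 WT and 118 Clec7a-/- cells, as 74 and 180 cells had too few UMIs.

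In transitional-like cells the ratio of Nfkbiz lay on the other side of 0. It was at 91.8 CPM (76.9 to 109) in WT and 135 CPM (112 to 161) in Clec7a-/- cells, for a log2 ratio of 0.55 (0.19 to 0.92) that did not pass the rule and was between -0.08 and 0.74 in the alternatives. Nfkbia was at 599 and 760 CPM in the same cells. Nfkb2 was lower there, at 144 and 94.5 CPM, the only 1 of 10 genes to pass (3.83% of 3315 genes were lower and 3.05% higher), and its ratio lay between -0.77 and -0.32 in the alternatives. In macrophage-like cells the log2 ratios of the 10 genes lay between -0.45 for Nfkbid and 0.06 for Nfkbiz, where 3.1% of 5807 genes were lower and 2.05% higher. The 2 macrophage-like clusters differed for Nfkb1, at a ratio of 0.06 (-0.10 to 0.21) in one and -0.40 (-0.61 to -0.21) in the other.

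Among dendritic cells the cDC1-like class, which cross-presents antigen, had the most genes lower in the Clec7a-/- library, 3 of the 9 with enough UMIs, where 3.66% of 2786 genes were lower and 6.42% higher. Nfkb1 was at 967 CPM (896 to 1042) in WT and 554 CPM (513 to 596) in Clec7a-/- cells, for a log2 ratio of -0.80 (-0.96 to -0.65). Nfkbie was at 155 CPM (128 to 187) and 89.5 CPM (73.8 to 108), a ratio of -0.79 (-1.18 to -0.40). In the 12 alternatives with a cDC1-like class the ratio of Nfkb1 lay between -0.88 and -0.61 and that of Nfkbie between -1.16 and -0.61. Tnfaip3 was at 394 and 257 CPM, a ratio of -0.61 (-0.85 to -0.38), but at -0.18 when each cell had the same weight. Rel and Relb, the dendritic subunits, were within 1.5-fold, at ratios of -0.14 and -0.24. Of the neutrophil markers, S100a8 was at 67.1 and 19.0 CPM in these cells and Cxcr2 at 0 in WT and 2.38 CPM in Clec7a-/- cells. The 12 markers summed to 2131 and 1626 CPM, with 9 lower by fold and 1 higher. The 8 proliferation genes summed to 312 and 528 CPM in these cells, with 6 higher by fold and 0 lower. The part of both lists was not tested.

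Nfkbie was lower in the other dendritic classes too, at 137 and 89.6 CPM in mature DC-like cells, where it was the only 1 of 9 genes to pass (4.22% of 2486 genes were lower and 2.94% higher) but came within 1.5-fold with TMM scaling (-0.57) and reciprocal PCA (-0.50), and at 154 and 104 CPM in cDC2-like cells, where the ratio of -0.56 (-1.07 to -0.07) did not pass and no gene of 8 did (4.38% of 1893 genes were lower and 4.17% higher). The neutrophil markers were lower by fold for 11 of 12 in mature DC-like cells (2021 and 823 CPM in sum) and 7 of 12 in cDC2-like cells (3736 and 2386 CPM), and their part was not tested. With the 3 dendritic classes together, Nfkbie had a log2 ratio of -0.68 (-0.93 to -0.43), Nfkb1 of -0.45 (-0.54 to -0.36) and Tnfaip3 of -0.38 (-0.53 to -0.23), while Relb was at 306 and 290 CPM, a ratio of -0.08 (-0.23 to 0.08). In T-cell-like cells Nfkb1, Nfkbia and Tnfaip3 had ratios of -0.29, 0.22 and -0.05 with intervals that held 0, where 5% of 720 genes were lower and 3.19% higher.

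The rest of the pathway was read from 4 lists over all cells, where 5.7% of all genes were lower and 10.2% higher. The lists were chosen with earlier results of these data known, so a count above the share of all genes is a description only. Of 25 adaptors and kinases upstream, 23 had 100 UMIs. Ikbke, an IκB kinase relative, was lower (95.3 and 51.9 CPM) and Map3k14, the kinase of the non-canonical pathway, higher (44.4 and 109 CPM). Map3k14 was a leading gene of the cDC2-like cluster, a class that held 4.12% and 8.34% of the UMIs. The part of the class shares in its ratio was not tested. Of 18 other IκB proteins and inhibitors 2 were lower, Irak3 (142 and 68.0 CPM) and N4bp1 (172 and 110 CPM), and none higher. Of 28 NF-κB-induced target genes 9 were lower and 5 higher. The leading ones were the cytokine Tnf (278 and 108 CPM) and the chemokines Cxcl2 (6447 and 2613 CPM) and Ccl3 (1037 and 430 CPM) on the lower side, and the dendritic genes Ccl22 (228 and 727 CPM), Cd40 (72.6 and 152 CPM) and Ccr7 (554 and 1094 CPM) on the higher side. Ccl22 and Ccr7 are mature DC markers, and that class held 5.25% and 13.2% of the UMIs of the 10 classes. Tnf was at 827 CPM in granule-rich and 1805 CPM in granule-poor neutrophil-like WT cells, and Ccl3 at 6288 CPM in the latter. The granule-rich class held 12.8% and 2.55% of the UMIs and the granule-poor class 1.83% and 4.02%. The part of the class shares in the ratios of these targets was not tested. Of 15 immediate-early and heat shock genes, which enzymatic digestion of tissue can induce, Egr1 (155 and 89.3 CPM) and Fosb (59.0 and 37.6 CPM) were lower and none higher.

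Within the classes, 10 of 21 induced targets were lower in granule-rich neutrophil-like cells, with Il1a, Cxcl3 and Tnf leading, and 1 was higher (9.97% and 11.3% of all genes). Of the immediate-early and heat shock genes, only Jun (867 and 1521 CPM) and Atf3 (849 and 1338 CPM) passed in these cells, both higher. Their part was not tested. In monocyte-like cells 9 of 21 were lower, led by Cxcl1, Cxcl2 and Ccl3, and none higher (4.76% and 2.89%). In macrophage-like cells 9 of 25 were lower, led by Ptgs2, Cxcl3 and Cxcl2, and 1 higher (3.1% and 2.05%). The 12 neutrophil markers in macrophage-like cells summed to 2804 and 1991 CPM, with 7 lower by fold and none higher. The 10 macrophage markers there summed to 14662 and 20480 CPM, with 2 higher by fold and none lower. The heat shock genes Hspa1a (146 and 358 CPM) and Hspa1b (190 and 308 CPM) were higher. The immediate-early gene Fosb (82.0 and 52.8 CPM) was lower. The part of these genes in the ratios of the targets was not tested. In transitional-like cells 2 targets were lower and 2 higher of 23 (3.83% and 3.05%), and in cDC1-like cells 4 and 4 of 24 (3.66% and 6.42%), where Il12b, at 138 and 31.7 CPM, had the lowest ratio. Malt1, which carries the Card9 signal towards NF-κB, was lower in cDC1-like cells (291 and 160 CPM), mature DC-like cells (270 and 156 CPM) and mixed cells (149 and 93.2 CPM). Bcl3, a nuclear IκB protein, was higher in monocyte-like cells (234 and 385 CPM), granule-poor neutrophil-like cells (173 and 328 CPM) and cDC2-like cells (113 and 186 CPM). In cDC2-like cells the leading lower targets were Cxcl1 (190 and 24.7 CPM), Ptgs2 (447 and 135 CPM) and Cxcl3 (654 and 216 CPM). Ccl22 (684 and 1219 CPM) was higher. Of all genes in this class 4.38% were lower and 4.17% higher. The 8 cDC2 markers themselves summed to 915 and 1468 CPM in cDC2-like cells, with 4 higher by fold and 2 lower. In WT cDC1-like cells the same markers summed to 971 CPM. Their part in the ratios of the targets was not tested. In granule-poor neutrophil-like cells, where Nfkbia was higher, the immediate-early genes Zfp36 (859 and 2144 CPM), Junb (1610 and 3201 CPM) and Dusp1 (2237 and 3980 CPM) were higher as well and the heat shock genes Hspa1a and Hspa1b lower, and their part in the ratio of Nfkbia was not tested. Of the induced targets in granule-poor cells, Tnf (1805 and 602 CPM), Icam1 (1037 and 451 CPM) and Ccl3 (6288 and 3450 CPM) were lower. Ier3 (2301 and 4716 CPM) was higher. In that class 24.3% of all genes were lower and 24.2% higher.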

How the data were processed

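CD11b+ and CD11c+ cells sorted from colorectal polyps, after collagenase digestion, were captured with the SeekOne MM 3' kit per the labels' protocol (their description field names 10x Genomics). Raw UMI counts for each barcode were deposited by the authors; the submitters' processing notes name Cell Ranger 2.1.1 and mm10. Clec7a itself was not analysed here. The cell filter asked for 200 to 4000 genes with a UMI and no more than 5% of UMIs from mitochondrial genes. Seurat 5.3.0 (R 4.3.3) clustered both libraries together (2000 variable features, 20 components, resolution 0.8, the first in steps of 0.1 to give at least 15 clusters), with the 10 genes, the pathway lists and sex-linked genes left out of the features. A class needed at least 3 markers that were 2-fold over other cells and had a UMI in 5% of its cells. Doublets were kept: Scrublet called 10 of the cells kept and so did not work here. Ratios used a pseudocount of 0.5 UMI. The ratios and intervals were run on counts simulated with Poisson error only. That run checks the calculation and holds no variation among cells, mice or libraries. Genes named are the 10 members, up to 3 per list and direction past 1.5-fold with 100 UMIs, and the 3 genes most alike each member, of which 1 is not reported here; the members and lists were chosen with earlier results of these data known. S100a8, S100a9 and Cxcr2 were named after their values were seen. edgeR 4.0.16 gave TMM factors, and Python 3.11.15, numpy 2.4.6, scipy 1.17.1, pandas 2.3.3, scanpy 1.11.5 and matplotlib 3.10.9 the rest.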

Additional observations from a re-analysis of the deposited data

Results flagged for a closer look

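The genes Nfkbiz, Nfkbia and Nfkb1 had opposite ratios in different classes, with both counting intervals away from 0; the difference between classes was not tested, and with 1 library per genotype it could not be. Nfkbiz had a log2 ratio of -1.08 in granule-rich neutrophil-like and 0.55 in transitional-like cells, and the second value was below 0 in 2 of 13 alternatives. Nfkbia had a ratio of -0.35 in cDC1-like and 0.82 in granule-poor neutrophil-like cells. Nfkb1 had a ratio of -0.80 in cDC1-like and 0.17 (0.01 to 0.32) in monocyte-like cells, where TMM scaling moved every ratio by -0.04. For each gene the 2 classes named are those with the lowest and the highest ratio among such classes, so they were picked by value.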

How the results depend on the processing

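No paired analysis was possible because each genotype had 1 library, and no replicate could be left out. Counts of the 10 genes lower or higher by the rule are compared here, with the cause not tested except where the setting itself removes calls. TMM scaling gave 2 lower and 0 higher over all cells, with a median of -0.34, 5 lower in granule-rich cells, 3 higher in granule-poor cells (median 0.79), 0 lower in mature DC-like cells and 3 pairs higher. It moved log2 ratios by -0.17 over all cells, 0.55 in granule-poor, -0.22 in granule-rich and -0.12 in mixed cells. At the WT class shares 0 genes were lower and 0 higher over all cells, and Relb turned to -0.11. A limit of 2-fold, which can only remove calls, left 0 lower and 0 higher over all cells, 1 lower in granule-rich cells, 0 higher in granule-poor cells, 0 lower in the mixed, monocyte-like, transitional-like, cDC1-like and mature DC-like classes, 1 pair lower and 0 higher, and over all cells 0 upstream genes, 1 other inhibitor and 0 immediate-early genes lower and 2 induced targets higher. A pseudocount of 5 UMIs left 1 lower in granule-rich, 2 in mixed and 0 in transitional-like cells, and 8 pairs lower. The mean over cells gave 0 higher over all cells, 2 higher in granule-poor cells, 1 lower in cDC2-like cells and 2 pairs higher.

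Up to 10% mitochondrial UMIs gave 5 lower in granule-rich and 1 in cDC2-like cells. With 500 to 6000 detected genes, 0 were higher in granule-poor cells, and 0 lower and 1 higher in transitional-like cells. With 10 components, granule-poor cells had 2 lower and 0 higher (median -0.23), transitional-like cells 0 lower and 1 higher, and macrophage-like cells 1 lower. With 30 components, 0 were lower in monocyte-like and transitional-like cells. Reciprocal PCA gave 2 lower and 0 higher in granule-poor cells (median -0.38), 2 lower in mixed, 0 in transitional-like and 0 in mature DC-like cells, and 0 pairs higher. All variable features gave 2 lower in monocyte-like cells, 1 higher in transitional-like cells and 2 pairs higher. A resolution lower by 0.2 formed no cDC1-like class and gave 0 lower in transitional-like cells and 8 pairs lower. Removing the highest 5% of Scrublet scores, chosen after seeing the data, gave 5 lower in granule-rich cells, 1 lower and 0 higher in granule-poor cells (median -0.45) and 0 pairs higher. Of the other values, 437 counts and medians and 1056 single ratios or shares of cells stayed close to those given. A further 114 single ratios or shares of cells moved further. The close ones include values over all cells that could not change where the same cells were only clustered anew. A count was taken as close if it was within 1.5-fold of the one given. A ratio, median or share was taken as close if it lay within the counting interval of the one given. For a median, that was the span between the medians of the interval ends. A value from few UMIs could thus differ much and still be close. Nfkb2 in granule-rich cells, at -0.07 and at -0.83 with up to 10% mitochondrial UMIs, was counted as close.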

Other observations

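Among the 4 small clusters outside the classes, a cluster with mast cell markers (16 WT and 5 Clec7a-/- cells) had the highest Nfkb1 of all clusters, at 2350 CPM (2028 to 2709) and 2030 CPM (1487 to 2708). It held Nfkbiz at 470 and 441 CPM. In a cluster with B or plasma cell markers (11 and 21 cells) Nfkbid had 1 UMI in WT and 21 in Clec7a-/- cells, a log2 ratio of 3.63 with a counting interval of 1.55 to 9.55.

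The barcodes left out for more than 5% mitochondrial UMIs numbered 729 in WT and 1057 in Clec7a-/-. In them Nfkbiz stood at 80.05 CPM (69.6 to 91.6) and 73.5 CPM (65.1 to 82.6), Nfkbia at 600 and 642 CPM, Relb at 86.9 and 136 CPM and Rel at 256 and 327 CPM.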
